A study of Mus musculus with 18 samples.

Results

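The microRNA-126 (miR-126) hairpin gives rise to a mature strand from each of its arms, miR-126-3p (mmu-miR-126-3p) and miR-126-5p (mmu-miR-126-5p), and both were looked up by name on every array. They were 2 of the 576 names on the array, with 2 probes each and 10 replicate spots per probe. Liver came from male Muta™Mouse (transgenic strain 40.6, with a bacterial lacZ reporter for scoring mutations), aged 25 weeks. All animals were gavaged daily for 28 days, either with olive oil alone or with benzo(a)pyrene (BaP, an aromatic hydrocarbon of soot and smoke) in the same oil at 25, 50 or 75 mg/kg/day, and were sampled 3 days after the last dose. There were 3 control arrays and 5 arrays at each dose, 1 liver per array, on 3 slides. Array numbers within a group only name the arrays.

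MiR-126 is transcribed from an intron of Egfl7, a gene for a secreted factor of blood vessels, and is best known from endothelial cells. There miR-126-3p dampens inhibitors of vascular endothelial growth factor signalling such as Spred1 and Pik3r2, and miR-126-5p has been tied to endothelial proliferation. Liver holds endothelial cells in its sinusoids and larger vessels, while hepatocytes make up most of its mass. One arm of a hairpin commonly accumulates to a higher level than the other. In whole liver, fewer endothelial cells and less miR-126 per cell cannot be told apart.

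In RefSeq (GRCm38.p6), the hairpin gene Mir126a lies at chr2:26591357-26591429 on the plus strand, inside the annotated bounds of Egfl7 at chr2:26581083-26592682. The array's names were matched to it through the synonym that the gene table lists. The mature strand measured as miR-126-3p is shown with its seed, bases 2 to 8, in capitals, because the seed sets which messenger RNAs a microRNA pairs with. The hairpin follows, with the same strand in capitals at hairpin bases 46 to 67, to show which arm was detected.
miR-126-3p: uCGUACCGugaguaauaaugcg
Mir126a hairpin: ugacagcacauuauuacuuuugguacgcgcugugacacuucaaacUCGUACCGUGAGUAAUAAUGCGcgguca

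The seed was carried by 1 of the 1738 mature mouse sequences in the RefSeq table, which was miR-126-3p itself. MiR-126-5p comes from the opposite arm and had no mature entry in that table. A second annotated gene, Mir126b, lies on the minus strand at chr2:26591363-26591420, and its hairpin is the exact reverse complement of bases 7 to 64 of the Mir126a hairpin. Probe sequences were not used here, so whether the miR-126-3p probes also read strands of Mir126b was not tested, and each miR-126-3p value below may include them.

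The arms were first compared by detection against background, since signals of different probes cannot be set against each other. A detection call also depends on how well a probe reports its strand, which was not tested for either arm. Detection therefore does not show which arm was more abundant in liver. MiR-126-3p was detected on 18 of 18 arrays and miR-126-5p on 0 of 18 by the scanner software's call per name. Over both probes and all arrays, 349 of 360 spots of miR-126-3p (96.9%) carried the scanner's flag for being well above background. For miR-126-5p it was 0 of 360 spots, against 1.81% of the spots of the negative control probes. This held in the controls and at every dose.

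MiR-126-5p was not distinguishable from background in any group. Its probe A_54_P1035 had a median spot signal between 38.2 and 70.2 across arrays, which was 0.906 to 1.00 times the median of the negative controls on the same array. Its probe A_54_P4367 lay between 37.8 and 71, or 0.859 to 0.971 times the negative controls. Neither probe rose above the negative control median of its array. After the software's background subtraction, the probe medians lay between -4.70 and 1.48. The scanner software listed its total gene signal, a background-corrected sum for the name, at 0.1 on every array.

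Because no probe of miR-126-5p passed the filter on dim probes, it was left out of the test and no fold change is given for it. With no filter at all, its normalised log2 signal averaged 5.80 ± 0.02 (SD) over the 3 controls. The means over the 5 arrays of a dose were 5.78 ± 0.04 (SD) for 25, 5.79 ± 0.03 (SD) for 50 and 5.79 ± 0.02 (SD) for 75 mg/kg/day. In a limma fit over all 576 names, the adjusted P against control was 0.704, 0.972 and 0.945 from the lowest to the highest dose. These values describe background signal, and they say nothing of whether the strand itself changed. The difference between the arms in their response was therefore not computed.

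**Figure D1:**
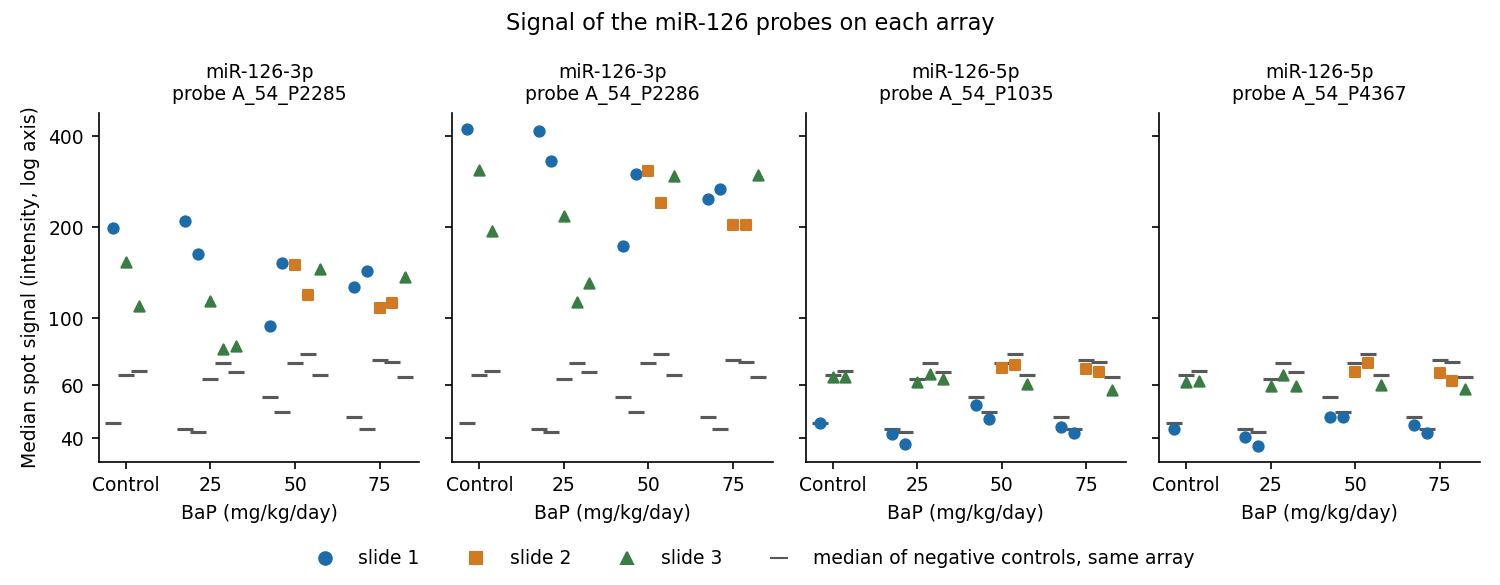
Median spot signal (intensity, log axis) of each miR-126 probe on each of the 18 arrays by dose, with symbols for the 3 slides and a dash for the median of the negative controls on the same array. Both miR-126-3p probes sit above the dashes on every array, and both miR-126-5p probes sit at or below them.

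MiR-126-3p was measurable in all groups, with a wide range of raw signal. Its brighter probe, A_54_P2286, gave a median spot signal of 424, 310 and 194 on control arrays 1 to 3. At 25 mg/kg/day it gave 416, 332, 218, 114 and 131. At 50 mg/kg/day the values were 174, 302, 308, 240 and 296. At 75 mg/kg/day they were 249, 269, 204, 204 and 299. Each dose group overlapped the controls.

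The dimmer probe, A_54_P2285, spanned 79.2 to 210 and had the same lowest array, BaP 25 mg/kg/day array 4. On that array only 1 of its 10 spots was well above background, and the probe was not counted as present there. That array also had the lowest share of spots well above background over the whole array, 5.72% against up to 16.5% elsewhere. Spots of a probe varied by a median coefficient of variation of 5.61% for A_54_P2285 and 6.03% for A_54_P2286.

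Total gene signal for miR-126-3p ran from 40.3 to 359, an 8.91-fold range, and both extremes were arrays of the 25 mg/kg/day group. Much of this followed the brightness of the whole array. Divided by the 75th percentile of total gene signal on its array, taken over names detected on all arrays, the value ran from 0.304 to 0.705, a 2.32-fold range. What remained divided by slide. The 7 arrays of slide 1 lay between 0.594 and 0.705, the 4 arrays of slide 2 between 0.366 and 0.455, and the 7 arrays of slide 3 between 0.304 and 0.407, so slide 1 did not overlap the other slides.

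The same split appeared after cyclic loess normalisation, on the log2 scale used for the tests. MiR-126-3p averaged 7.71 ± 0.09 (SD, n = 7) on slide 1, 7.28 ± 0.08 (SD, n = 4) on slide 2 and 7.34 ± 0.04 (SD, n = 7) on slide 3. With dose in the model, slide 2 was lower than slide 1 by -0.41 ± 0.05 (SE) and slide 3 by -0.38 ± 0.04 (SE). The median signal of the negative controls was 42 to 55 on arrays of slide 1 and 63 to 76 on the other arrays. The part of this background in the split was not tested. Slide accounted for 90.3% of the variance of miR-126-3p across arrays, the 12th highest share of the 69 miRNAs tested, whose median was 54.9%. Once slide and dose were fitted, its residual SD was 0.07, close to the median of 0.08 over all 69. Each slide held a different mix of doses, and slide 2 held no control, so the limma comparisons below carry slide as a block unless said otherwise.

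The normalised log2 signal of miR-126-3p was 7.85, 7.34 and 7.31 on control arrays 1 to 3. The first of these was on slide 1 and the others on slide 3. At 25 mg/kg/day the arrays read 7.77 and 7.77 on slide 1, then 7.39, 7.28 and 7.32 on slide 3. At 50 mg/kg/day they read 7.62 and 7.64 on slide 1, 7.37 and 7.19 on slide 2, and 7.38 on slide 3. At 75 mg/kg/day they read 7.63 and 7.72 on slide 1, 7.29 and 7.26 on slide 2, and 7.38 on slide 3. Pooled over slides, no dosed array exceeded the highest control, which was on slide 1. Below the lowest control lay 1 of 5 arrays of the 25 mg/kg/day group, 1 of 5 of the 50 mg/kg/day group and 2 of 5 of the 75 mg/kg/day group.

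**Figure D2:**
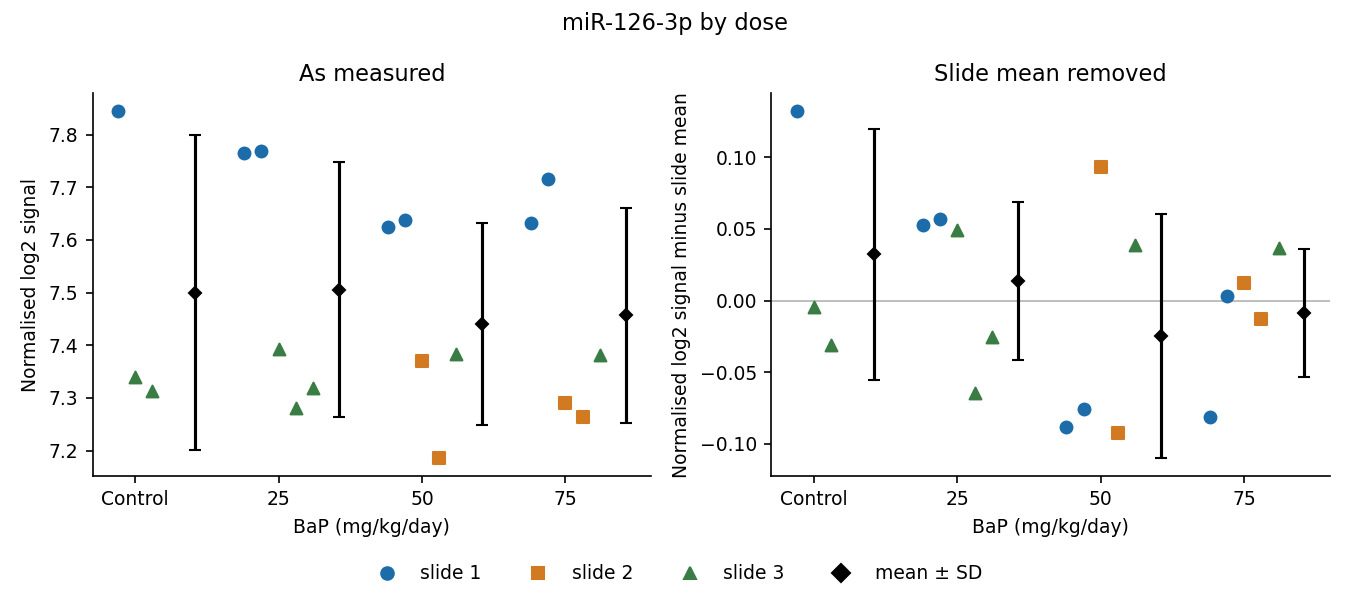
Normalised log2 signal of miR-126-3p on each array by dose (left) and the same after subtracting the mean of its slide (right). Symbols mark the 3 slides and diamonds with bars give the mean ± SD of a group; the slide 1 arrays form the upper band at 7.62 to 7.85 in the left panel, and the groups overlap in both.

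MiR-126-3p did not pass the test at any dose. Without regard to slide, the 3 controls averaged 7.50 ± 0.30 (SD). The 5 arrays of each dose averaged 7.51 ± 0.24 (SD) for 25, 7.44 ± 0.19 (SD) for 50 and 7.46 ± 0.21 (SD) for 75 mg/kg/day. With slide as a block, the limma means were 7.51, 7.50, 7.44 and 7.46 in the same order. The question these comparisons address is whether BaP altered hepatic microRNA at each dose.

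At 25 mg/kg/day the log2 change from control was -0.02 ± 0.05 (SE), a 0.987-fold change with a 95% interval of 0.912 to 1.07 (limma, adjusted P = 0.840). No miRNA of the 69 passed the threshold at this dose (0.0%), while 7 had an unadjusted P under 0.05 (10.1%). At 50 mg/kg/day the change was -0.07 ± 0.06 (SE), or 0.950-fold, with an interval of 0.873 to 1.03 (limma, adjusted P = 0.496). There 2 of 69 miRNAs passed, or 2.9%. At 75 mg/kg/day it was -0.06 ± 0.06 (SE), or 0.961-fold, with an interval of 0.883 to 1.05 (limma, adjusted P = 0.519), and 4 of 69 miRNAs, or 5.8%, passed, 1 higher and 3 lower. That split turned with the scaling, to 9 higher and 0 lower on total gene signal and 3 higher and 0 lower on processed signal. Ranked by P among the 69, miR-126-3p stood 59th, 30th and 44th.

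Neighbouring doses did not separate either. The log2 difference was -0.05 ± 0.05 (SE) between 50 and 25 mg/kg/day and 0.02 ± 0.05 (SE) between 75 and 50 mg/kg/day, with limma adjusted P of 0.677 and 0.961. Between 75 and 25 mg/kg/day it was -0.04 ± 0.05 (SE; limma, adjusted P = 0.786), where 2.9% of miRNAs passed. The slope over dose was -0.02 ± 0.02 (SE) log2 units per 25 mg/kg/day (limma, adjusted P = 0.472), where 10.1% passed, 2 higher and 5 lower. For the slope the split was 13 higher and 0 lower on total gene signal and 2 higher and 0 lower on processed signal. In order of slide-adjusted mean the groups ran control, 25, 75 and 50 mg/kg/day, and no neighbours in that order differed beyond their error.

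These intervals are on signals without background subtraction, which compress the change of the RNA itself. On the software's background-subtracted processed signal the 95% interval at 75 mg/kg/day widened to 0.885 to 1.32-fold (limma, adjusted P = 0.75). An effect of 1.5-fold lay outside the interval at each dose on either signal. It did not when array medians were centred in place of loess. The intervals then ran from 0.466 to 1.29-fold at 25, 0.443 to 1.35-fold at 50 and 0.453 to 1.38-fold at 75 mg/kg/day. Each held a fall of that size. Some intervals under other scaling left out no change, in opposite directions. On total gene signal the interval at 75 mg/kg/day was 1.03 to 1.32-fold. On the authors' deposited values it was 0.724 to 0.948-fold at 25 and 0.722 to 0.967-fold at 75 mg/kg/day. None of these changes passed the threshold after adjustment.

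Exact two-sided permutation tests of the normalised signal were run for 4 comparisons. Ignoring slide, which leaves the slide effect in the spread, the exact P against control was 0.929, 0.696 and 0.768 from the lowest to the highest dose, and it was 0.619 for 75 against 25 mg/kg/day. With rearrangements kept within slides, the exact P was 0.533, 0.444, 0.556 and 0.583 in that order, and the adjusted P was 0.583 for each. Within slides the smallest P that the exact test allows is 0.0333 at 25 and 0.111 at 50 or 75 mg/kg/day, and 0.0417 for 75 against 25. None could pass after adjustment over the 4, so the within-slide tests say nothing for or against a change.

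The small differences from control in the normalised signal did not have one direction within slides. On slide 1 the dosed arrays averaged below the single control array there, by -0.08 at 25, -0.21 at 50 and -0.17 at 75 mg/kg/day on the log2 scale. On slide 3, against both of its controls, the differences were 0.0043, 0.06 and 0.05. Total gene signal divided by the 75th percentile of its array differed from this. Its log2 differences by rising dose were 0.03, 0.08 and 0.24 on slide 1, and -0.06, 0.21 and 0.27 on slide 3. Without control array 1, the fitted log2 change of the normalised signal was 0.04 at 25 and 0.01 at 75 mg/kg/day, so the sign at those doses rested on that array. Without BaP 25 mg/kg/day array 4, the change at 25 mg/kg/day was 0.00039.

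**Figure D3:**
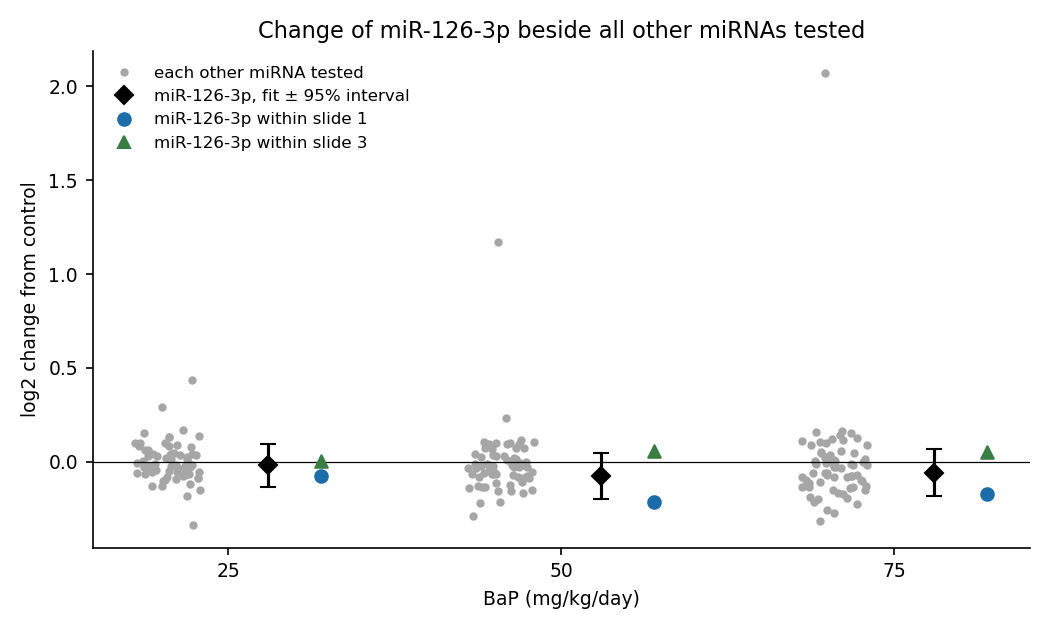
Log2 change from control at each dose for miR-126-3p (diamond, limma fit with slide as a block, bar for the 95% interval), for miR-126-3p within slides 1 and 3, and for each of the other miRNAs tested (grey). All 3 intervals for miR-126-3p include 0, while the far grey point is miR-34a, at 1.17 for 50 and 2.07 for 75 mg/kg/day.

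The probes of miR-126-3p gave changes of the same sign at each dose, none of them past the threshold. At 50 mg/kg/day the log2 change was -0.12 ± 0.06 (SE) for A_54_P2285 and -0.03 ± 0.07 (SE) for A_54_P2286, with limma adjusted P of 0.330 and 0.912. At 75 mg/kg/day the values were -0.07 ± 0.06 (SE) and -0.04 ± 0.07 (SE), with limma adjusted P of 0.537 and 0.732. With slide means removed, the probes correlated at r = 0.48 over the 18 arrays, which share their libraries and normalisation.

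The direction for miR-126-3p depended on the scaling. On total gene signal scaled to that 75th percentile of each array, the log2 change was 0.22 ± 0.08 (SE) at 75 mg/kg/day (limma, adjusted P = 0.0882), and the slope over dose, 0.09 ± 0.03 (SE) per 25 mg/kg/day, passed the threshold (limma, adjusted P = 0.0413). Under that scaling the median of all 69 miRNAs also shifted, by 0.18 at 75 mg/kg/day and 0.07 per dose step. Relative to that median, miR-126-3p was higher by 0.04 at 75 mg/kg/day and by 0.02 per dose step. On the authors' deposited values it went the other way, by -0.27 at 25, -0.18 at 50 and -0.26 at 75 mg/kg/day (limma, adjusted P = 0.0720, 0.534 and 0.113), where the median of all 69 moved by -0.11, -0.06 and -0.11. With array medians centred in place of loess it was lower still and less precise, by -0.36 ± 0.34, -0.37 ± 0.37 and -0.34 ± 0.37 (SE) from the lowest to the highest dose (limma, adjusted P = 0.572, 0.620 and 0.627), where the median of all 69 moved by -0.23, -0.25 and -0.25.

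**Figure D4:**
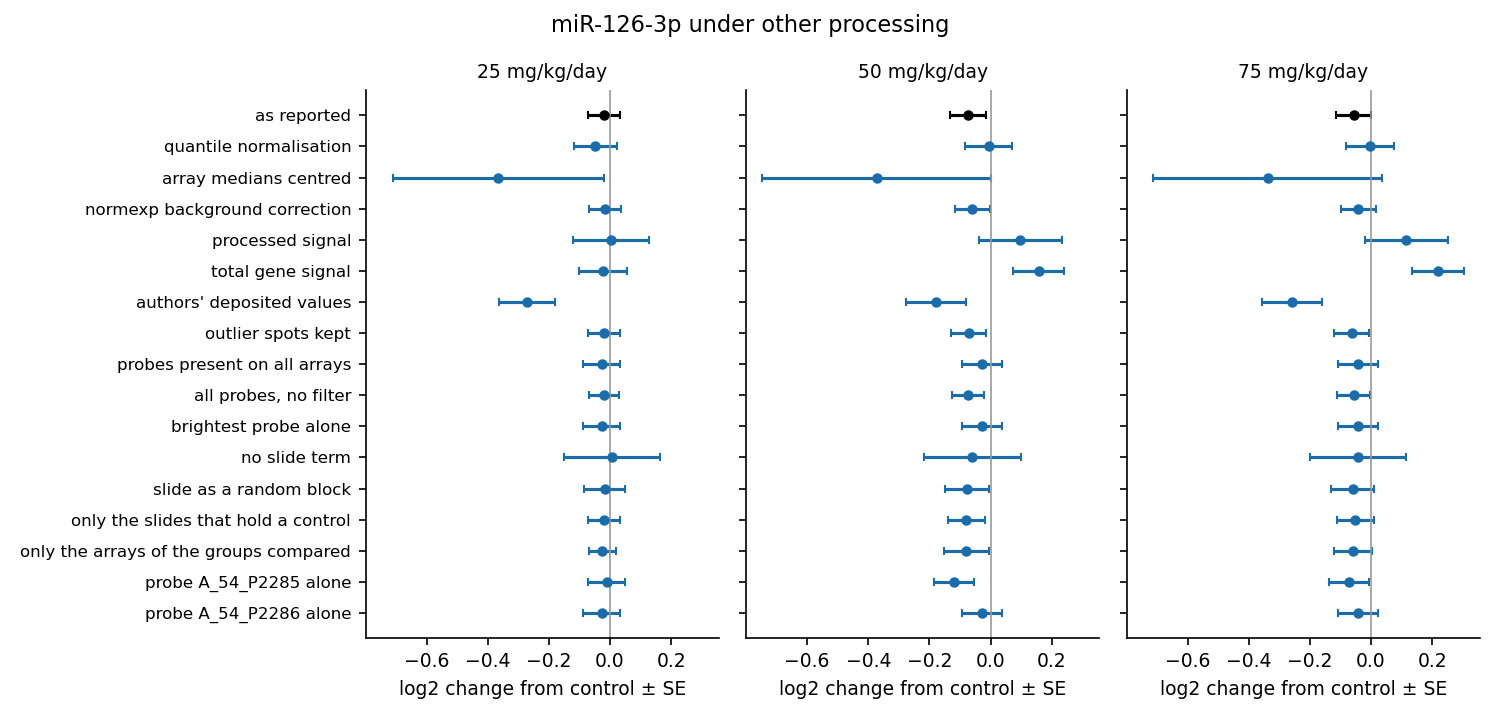
Log2 change of miR-126-3p from control at each dose (x axis, point with ± SE) under each way of processing (rows), with the reported value in black. Of the 3 settings farthest from 0, total gene signal lies above it at 50 and 75 mg/kg/day, at 0.16 and 0.22, while array median centring (-0.36, -0.37 and -0.34) and the deposited values (-0.27, -0.18 and -0.26) lie below it at all doses.

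Other miRNAs tied to endothelial cells and vessel growth were examined beside it. Of a list of 30, all were on the array and 14 passed the filter on dim probes, among them the miR-23, miR-24 and miR-27 cluster members. At 25 and 50 mg/kg/day none of the 14 passed the threshold in limma. At 75 mg/kg/day 1 fell and none rose, with a median log2 change of -0.0031 beside -0.03 over all 69, of which 4.35% fell. For the slope over dose, 2 fell and none rose, where 7.25% of all 69 fell.

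The member that fell at 75 mg/kg/day was miR-10a, which lies in a Hox gene cluster and is known for restraining inflammatory signalling in endothelium. Its normalised log2 signal was 6.84, 7.00 and 7.12 in the controls, and its lowest, median and highest values at 75 mg/kg/day were 6.55, 6.75 and 6.85. The change was -0.25 ± 0.06 (SE; limma, adjusted P = 0.0122). It did not reach 1.5-fold. Of 14 other ways of processing, 10 kept the call, and total gene signal did not (adjusted P = 0.265). It was also lost without control array 1 (adjusted P = 0.107).

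MiR-130a, known for lowering the antiangiogenic homeobox factors Gax and Hoxa5, had a slope of -0.05 ± 0.01 (SE) per 25 mg/kg/day (limma, adjusted P = 0.0466). Its call was lost in 14 of the 18 fits that each left out 1 array and held in only 3 of 13 other ways of processing. On total gene signal its slope was 0.04. Counts of this kind describe the list only.

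Markers of the other liver cell types gave the setting for these values. MiR-122, the defining microRNA of hepatocytes, was detected on 18 of 18 arrays, and its log2 change at 75 mg/kg/day was 0.11 ± 0.10 (SE; limma, adjusted P = 0.50). Of 7 blood and immune markers 3 were tested, namely miR-451 and miR-144 of red cells and miR-223 of myeloid cells. None passed the threshold in the 5 comparisons. Of 6 mesenchymal and smooth muscle markers only miR-199a-3p was tested, and miR-214 and miR-145 were detected on 0 arrays. MiR-199a-3p, which stellate cells express, fell by 0.22 at 75 mg/kg/day on the log2 scale (limma, adjusted P = 0.00931), and that call was lost without control array 1 (adjusted P = 0.107). It held under 8 of 14 other ways of processing. The slope of miR-199a-3p over dose was -0.07 ± 0.01 (SE) per 25 mg/kg/day (limma, adjusted P = 0.00384). The call for the slope held in 18 of 18 fits that each left out 1 array and in 8 of 13 other ways of processing. Divided by the 75th percentile of its array, the summed total gene signal of the blood markers spanned 1.52 to 2.40 in controls, 0.997 to 2.58 at 25, 1.28 to 3.22 at 50 and 0.754 to 4.91 at 75 mg/kg/day. That of the mesenchymal markers spanned 0.124 to 0.151 in controls, 0.0830 to 0.141 at 25, 0.0846 to 0.140 at 50 and 0.0648 to 0.156 at 75 mg/kg/day. Each dose group overlapped the controls in both sums. Before that division, total gene signal ran from 134 to 1314 for miR-451, while no other blood marker exceeded 86.6. It ran from 10.5 to 76.1 for miR-199a-3p, while no other mesenchymal marker exceeded 8.29. Each sum therefore mainly reflects 1 miRNA. The part of cell makeup in the miR-126-3p values was not tested.

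With slide means removed, the miRNAs whose signal was most like that of miR-126-3p over the 18 arrays were miR-22 (r = 0.75), miR-7a (r = 0.61) and miR-25 (r = 0.61). The arrays share their normalisation, so these are descriptions of likeness. On slide 1, miR-22 also averaged below the control at each dose, by -0.22, -0.35 and -0.53, and on slide 3 it averaged above the controls, by 0.10, 0.13 and 0.08. None of these 3 miRNAs passed the limma threshold against control at any dose. The nearest was miR-7a at 75 mg/kg/day, at -0.17 ± 0.06 (SE; limma, adjusted P = 0.0744).

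The arms were also set against each other across arrays within the slides that held 7 arrays. On slide 1 Pearson's r was -0.07 (exact permutation P = 0.885) and Spearman's rho 0.00 (exact permutation P = 1.00). On slide 3 r was 0.13 (exact permutation P = 0.765) and rho 0.04 (exact permutation P = 0.963). Over these 4 tests each adjusted P was 1.00. Without the 2 arrays farthest from the median of miR-126-3p, r was -0.47 on slide 1 and -0.68 on slide 3. Since the signal of miR-126-5p was background, these values relate miR-126-3p to background only.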

How the data were processed

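The authors hybridised 100 ng of cyanine 3 labelled total RNA per liver to 1-colour Agilent mouse miRNA arrays and extracted images with Feature Extraction 10.7.3.1. The authors deposited linear spot intensities as scanned, before any normalisation across arrays. The authors' table of 1 log2 value per name was used as an alternative. The study's methods describe cyclic loess normalisation, and the medians of that table's columns lay between 5.74 and 5.76. Arrays give no read depth, and their number limits the precision.

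Per the study's methods, median spot signals were kept without background subtraction, log2 transformed and normalised by cyclic loess (limma 3.58.1, R 4.3.3) over 11540 non-control spots. Spots marked as outliers were then left out, and the median over spots and the mean over present probes were taken. A probe was present on an array with at least 0.5 of its spots well above background, and kept if present on at least 0.8 of the arrays of any group, which left 112 probes of 69 miRNAs. Linear models with slide as a fixed block used all 18 arrays, in place of the MAANOVA of the study. P-values were two-sided and Benjamini-Hochberg adjusted over the 69, with a threshold of 0.05. The script was tested on simulated data.

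Groups came from the labelled dose. Arrays of further vehicle animals were not among those analysed here. The study describes 5 animals per group and a quality check that removed arrays, without naming their groups. All 5 arrays of each dose but only 3 controls were present here, so the arrays missing from that design are controls. P-values measure the spread between these livers. The members, the list of vessel miRNAs and the cell markers were chosen with earlier results of these data known. Named miRNAs were both arms with each probe, list members past the threshold, and the 3 miRNAs most like each detected arm. MiR-34a was named only because it stands out in a plot. Alternatives covered normalisation, background, filters, slide and leaving out each array. The exact tests, single-probe fits, neighbouring doses and scaled marker sums were added after seeing the data.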

Additional observations from a re-analysis of the deposited data

How the results depend on the processing

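For miR-126-3p the side of the threshold held under every alternative run except total gene signal, where the slope over dose passed it. The direction did not hold. On the processed signal the log2 change turned to 0.0024 at 25, 0.10 at 50 and 0.11 at 75 mg/kg/day, 0.11 for 75 against 25, 0.094 for 50 against 25 and 0.043 for the slope. On total gene signal it turned to 0.16 at 50, 0.22 at 75, 0.24 for 75 against 25, 0.18 for 50 against 25 and 0.085 for the slope. Quantile normalisation gave 0.044 for 75 against 25, 0.041 for 50 against 25 and 0.0043 for the slope. Centring array medians gave 0.026 for 75 against 25, and the deposited values gave 0.012 for 75 against 25, 0.093 for 50 against 25 and -0.081 for 75 against 50. With no slide term, in limma or as a plain difference, the change at 25 was 0.0061. Using only probes present on all arrays, or the brightest probe, gave -0.015 for 75 against 50. Centring array medians gave -0.36, -0.37 and -0.34 from the lowest to the highest dose and moved the median of all 69 miRNAs by -0.23 at 25 and -0.25 at 50 and 75 mg/kg/day. The cause of these turns was not tested.

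Leaving out each array gave log2 changes from -0.050 to 0.039 at 25, from -0.12 to -0.0051 at 50, from -0.095 to 0.011 at 75, from -0.074 to -0.015 for 75 against 25, and from -0.034 to -0.0034 for the slope. For 75 against 50 they ran from -0.0096 to 0.047, and the sign turned without BaP 50 array 1 (-0.00013), BaP 50 array 4 (-0.0096) or BaP 75 array 5 (-0.0062).

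The count of miRNAs past the threshold also moved, and on total gene signal and processed signal none of the calls against control or for the slope was lower. At 25 mg/kg/day the deposited values gave 7, against 0. At 50, where 2 passed, total gene signal gave 4, probes present on all arrays 0, and quantile, centring, normexp, processed signal, no filter, the brightest probe, no or random slide, the control slides alone and the compared arrays alone gave 1. At 75, where 4 passed, total gene signal and no filter gave 9, centring and no slide term 1, and the compared arrays alone 2. For 75 against 25, where 2 passed, probes present on all arrays gave 0, and quantile, centring, processed signal, the deposited values, no filter, the brightest probe, no or random slide, the control slides alone and the compared arrays alone gave 1. For the slope, where 7 passed, total gene signal gave 13, quantile and the deposited values 3, processed signal and no slide term 2, and centring 1. Leaving out each array gave 0 to 1, 1 to 4, 1 to 9, 1 to 7 and 4 to 11 in that order.

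No paired analysis was possible because the labels give no replicate numbers. The difference between the arms and its alternatives were not run, since no probe of miR-126-5p was present. At background signal a change in miR-126-5p could not be measured in either direction.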
